A study of Mus musculus with 6 samples.

Results

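Imprinted genes are expressed mainly or wholly from the copy inherited from 1 parent. A group of 10 that code for proteins, Igf2, Peg3, Peg10, Dlk1, Cdkn1c, Grb10, Mest, Plagl1, Ndn and Snrpn, was followed through 2 days of neural plate differentiation in culture. They were found through the RefSeq accession that the array files give for each probe, which led to 20 probes for the 10 genes, of 55646 probes and 20274 named genes in all. Every probe of the 10 genes was well above background on all 6 arrays, and all 10 genes were tested. They lie on chromosome 7 (Igf2, Peg3, Cdkn1c, Ndn and Snrpn), 6 (Peg10 and Mest), 10 (Plagl1), 11 (Grb10) and 12 (Dlk1).

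The cells were epiblast stem cells of mouse strain 129/Sv, a pluripotent type grown from the epiblast of the implanted embryo. Per the labels, EpiSC cultures stayed in the epiblastic maintenance condition, NPC1 cultures spent 1 day in a neural plate condition and NPC2 cultures spent 2 days in it, with 2 cultures, A and B, in each group. The 6 cultures shared 1 seed culture, and the p-values therefore speak only of the spread between such duplicates, part of which may be technical. Each culture's RNA, labelled with Cy3, had its own 1-colour array, and the 6 arrays lay on 1 slide. In bulk RNA, fewer cells that express a gene and less RNA per cell cannot be told apart, and these probes do not tell the maternal copy of a gene from the paternal one.

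The labels were checked against marker genes. Sox1, a neural plate transcription factor, gave a processed signal of 47.5 and 43.8 in EpiSC, 300 and 312 in NPC1 and 2561 and 2472 in NPC2. Pou5f1, a pluripotency factor, gave 28624 and 32048 in EpiSC, 16315 and 18617 in NPC1 and 5080 and 4941 in NPC2. Of the 6 epiblast markers 5 were lower and 1 higher in NPC2 than in EpiSC; the higher one was Nanog, a pluripotency factor, with 125 and 134 in EpiSC, 163 and 174 in NPC1 and 238 and 239 in NPC2. All 6 neural plate markers were higher in NPC2 than in EpiSC, and of these Zic1 was lower in NPC2 than in NPC1 (log2 change -0.19, adjusted p = 0.0316). Nanog, Zic1, Tubb3 and Foxa2 are named here after their values were seen. Marker counts are of genes that passed the test described below. Among all tested genes 21.3% were higher and 29% lower in NPC1 than in EpiSC. In NPC2 against EpiSC 28.3% of all tested genes were higher and 40.7% lower. Of the 6 neuronal markers 4 were higher and 1 lower in NPC1 than in EpiSC, and 3 were higher and 1 lower in NPC2 than in EpiSC. Their summed level, each gene scaled to 100 at its array's 75th percentile, was 1983 to 2003 in EpiSC, 3278 to 3415 in NPC1 and 2437 to 2450.3 in NPC2, and Tubb3, a neuronal tubulin gene, was 4.35-fold higher in NPC1 than in EpiSC.

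Of other cell types, 8 of 14 tested fibroblast, feeder and mesenchyme markers were higher and 3 lower in NPC2 than in EpiSC. The summed level of the 16 markers on the array was 1258 to 1324 in EpiSC, 1443 to 1492 in NPC1 and 1998 to 2073 in NPC2, and Fap and Lum were not well above background on any array. Of 7 tested endoderm markers 6 were lower in NPC1 and all 7 in NPC2 than in EpiSC (summed level 688 to 710 in EpiSC, 111 to 112 in NPC1 and 208 to 222 in NPC2, with Apoa1 and Ttr not above background on any array). Of 7 tested trophoblast markers 5 were lower in NPC1 and all 7 in NPC2 than in EpiSC (950 to 954 in EpiSC, 632 to 646 in NPC1 and 271 to 279 in NPC2, with Cdx2 and Tpbpa not above background). Of 6 tested mesoderm markers 4 were lower in NPC1, and 4 lower and 1 higher in NPC2, than in EpiSC (1550 to 1608 in EpiSC, 1162 to 1249 in NPC1 and 1085 to 1233 in NPC2, with Msgn1 not above background). Beside these counts, 21.3% of all tested genes were higher and 29% lower in NPC1 than in EpiSC. In NPC2 against EpiSC these shares were 28.3% and 40.7%. The part of neurons and of these other cell types in the results below was not tested.

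Imprints are laid down in the germ line as DNA methylation and kept after fertilization by factors that include the zinc finger protein ZFP57. Igf2, Peg3, Peg10, Dlk1, Mest, Plagl1, Ndn and Snrpn are expressed from the paternal copy. Cdkn1c is expressed from the maternal copy, as is Grb10 in most tissues, while neurons express Grb10 from the paternal copy. Many imprinted genes act on growth: Igf2 encodes a growth factor that promotes it, and Cdkn1c and Grb10 restrain it.

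The 250 bases before a listed transcription start are shown for 1 of the 3 listed starts of Mest and the single listed start of Plagl1, whose windows hold the ZFP57 motif TGCCGC on either strand, and for Ndn, whose window does not. The sequences are from RefSeq on GRCm38.p6, run 5′ to 3′ on the gene's own strand, and have CpG dinucleotides, the sites of methylation, in capitals.
Mest, chr6:30737800-30738049, plus strand: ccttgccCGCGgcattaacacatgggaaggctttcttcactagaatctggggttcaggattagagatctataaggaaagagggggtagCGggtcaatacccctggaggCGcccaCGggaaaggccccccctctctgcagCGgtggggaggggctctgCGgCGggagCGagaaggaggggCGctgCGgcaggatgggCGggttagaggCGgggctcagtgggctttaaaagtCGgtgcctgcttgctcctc
Plagl1, chr10:13090582-13090831, plus strand: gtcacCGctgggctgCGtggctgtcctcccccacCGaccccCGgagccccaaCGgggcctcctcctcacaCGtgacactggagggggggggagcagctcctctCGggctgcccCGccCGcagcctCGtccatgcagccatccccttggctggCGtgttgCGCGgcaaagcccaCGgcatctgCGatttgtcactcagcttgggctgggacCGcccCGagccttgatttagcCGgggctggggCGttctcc
Ndn, chr7:62348027-62348276, plus strand: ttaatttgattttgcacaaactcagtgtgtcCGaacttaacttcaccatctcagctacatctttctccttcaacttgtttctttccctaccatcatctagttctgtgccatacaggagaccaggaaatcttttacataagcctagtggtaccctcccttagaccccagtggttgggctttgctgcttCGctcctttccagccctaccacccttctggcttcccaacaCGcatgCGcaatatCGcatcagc
The Mest window shown held 14 CpG and 2 matches to the motif, a second that overlaps it held the same numbers, and the third, chr6:30733256-30733505 on the plus strand, held 7 CpG and 0 matches. The Plagl1 window held 19 CpG and 1 match, and the Ndn window 5 CpG and 0 matches. The median over 32851 listed windows of this length was 6 CpG, and 8.68% of them held the motif. Windows were listed for 8 of the 10 genes, 17 in all, of which 3 held the motif (the overlapping pair of Mest and that of Plagl1), with 1 to 40 CpG. A match is a description of letters, and methylation was not measured on these arrays.

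After 1 day, 6 of the 10 genes passed the test (limma, Benjamini-Hochberg adjusted p under 0.05), 2 higher and 4 lower in NPC1 than in EpiSC, where 50.3% of all 14773 tested genes passed (21.3% higher, 29% lower). After 2 days 9 of the 10 passed, 5 higher and 4 lower in NPC2 than in EpiSC, against a background of 69% (28.3% higher, 40.7% lower). Between the days 9 passed, 6 higher and 3 lower in NPC2 than in NPC1, against a background of 47.5% (20.8% higher, 26.6% lower). The median size of the log2 change, without its sign, was 0.246 for the 10 genes and 0.249 for all genes in NPC1 against EpiSC. It was 1.15 for the 10 genes and 0.409 for all genes in NPC2 against EpiSC. In NPC2 against NPC1 it was 0.881 for the 10 genes and 0.229 for all genes. The arrays of NPC1 and EpiSC did not overlap for 7 of the 10 genes and 77.7% of all genes. Those of NPC2 and EpiSC did not overlap for 10 of the 10 and 87% of all genes, and those of NPC2 and NPC1 for 9 of the 10 and 75.6%. The 3 comparisons share groups, so their counts are not independent of each other. The 10 genes were also chosen with earlier results of these data known. Their probes were well above background on all 6 arrays, which was not required of the other genes. The shares and medians set beside those of all genes are therefore no test of imprinted genes as a group.

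**Figure D1:**
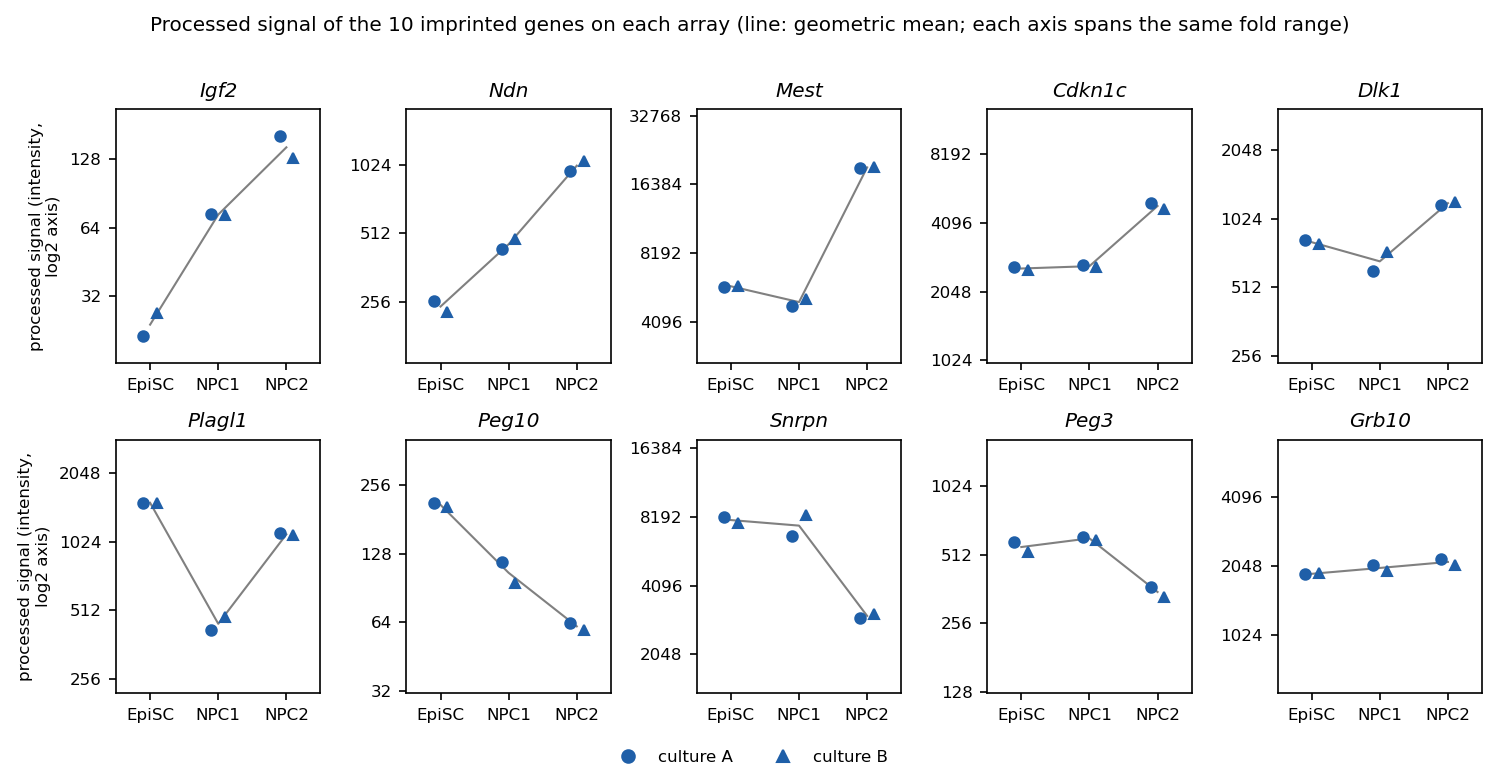
Processed signal (intensity, log2 axis) of the representative probe of each gene on each array, with culture A as a circle, culture B as a triangle and a line through the geometric means. Igf2 and Ndn are higher in each later group, Peg10 is lower in each, Plagl1 is lowest in NPC1, and Mest, Cdkn1c, Snrpn and Peg3 lie apart from the other groups in NPC2.

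Igf2 encodes insulin-like growth factor 2, a secreted growth factor that signals through the IGF1 and insulin receptors. Its probe, A_55_P2118173, gave a signal of 21.4 and 27.0 in EpiSC, 73.4 and 72.6 in NPC1 and 160.8 and 128.9 in NPC2. The signal was low in EpiSC, where the lowest signals well above background were 8.95 and 9.57, and the groups did not overlap at any step. Igf2 rose in NPC1 over EpiSC by 1.61 ± 0.15 on the log2 scale (SE after moderation, 2 arrays per group, adjusted p = 0.00148). In NPC2 it was 5.72-fold higher than in EpiSC (log2 change 2.52 ± 0.15, adjusted p = 0.000139). Under normexp the change of this dim probe was smaller, 0.54 in NPC1 and 1.19 in NPC2 against EpiSC, and still passed. A rise as large as that reported in NPC1 was seen in 1.75% of tested genes.

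Other genes of the IGF pathway were read from a list of 18, of which 17 were tested. In NPC2 against EpiSC 9 rose and 6 fell, where 28.3% of all genes rose and 40.7% fell, with a list median of 0.33 on the log2 scale and an all-gene median of -0.10. Igfbp5, a secreted IGF-binding protein, gave 130 and 123 in EpiSC, 672 and 642 in NPC1 and 2451 and 2349 in NPC2, a log2 change of 4.18 ± 0.07 in NPC2 against EpiSC (3.55 under normexp). Igfbp3, another binding protein, gave 3991 and 3788 in EpiSC, 464 and 463 in NPC1 and 288 and 256 in NPC2, a log2 change of -3.90 ± 0.08. The IGF-binding proteins thus moved in both directions, with Igfbp4 at 1.28 ± 0.16 and Igfbp6 at -1.63 ± 0.06. The receptors, chosen after their values were seen, all rose in NPC2 against EpiSC: Igf1r by 0.85 ± 0.05, the insulin receptor gene Insr by 0.82 ± 0.07 and Igf2r, which clears IGF2 from the cell surface and is itself imprinted, by 0.33 ± 0.05.

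Ndn encodes necdin, a MAGE family protein known for limiting proliferation of neurons and their precursors. Its probe, A_52_P451644, gave 257.7 and 231.1 in EpiSC, 436.6 and 480.3 in NPC1 and 961.3 and 1065.5 in NPC2. Each later group lay above the one before it. Ndn was 1.89-fold higher in NPC1 than in EpiSC (log2 change 0.92 ± 0.09, adjusted p = 0.00139) and 3.97-fold higher in NPC2 than in EpiSC (log2 change 1.99 ± 0.09, adjusted p = 5.0e-05).

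Mest encodes a putative hydrolase of the endoplasmic reticulum and is known as a mesoderm-expressed transcript of the embryo. Probe A_51_P124535, printed as 10 spots on each array, gave 5821.6 and 5886.4 in EpiSC, 4817.0 and 5169.7 in NPC1 and 19359.8 and 19538.7 in NPC2. The 10 spots varied by 3.48% to 5.35% (coefficient of variation) within an array. The NPC2 arrays lay far above all others, and those of NPC1 slightly below those of EpiSC. Mest was 3.18-fold higher in NPC2 than in EpiSC (log2 change 1.67 ± 0.04, adjusted p = 1.4e-05). The log2 change in NPC1 against EpiSC was -0.22 ± 0.04 (adjusted p = 0.0113), a call that ended under quantile normalization, normexp, the authors' value table (adjusted p = 0.137, 0.255 and 0.114) and without either EpiSC array (adjusted p = 0.0605 without A and 0.0693 without B). In NPC2 against NPC1 it rose by 1.89 ± 0.04, and 1.76% of tested genes rose as much.

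The other Mest probes gave the same picture at lower signals. Probe A_55_P2090025 gave 2387.3 and 2423.1 in EpiSC, 2110.6 and 2075.0 in NPC1 and 6952.9 and 7031.8 in NPC2. Probe A_55_P2151868 gave 328.8 and 345.3 in EpiSC, 320.6 and 297.4 in NPC1 and 1144.9 and 1192.9 in NPC2. Their log2 changes in NPC2 against EpiSC were 1.48 ± 0.06 and 1.73 ± 0.09, and both passed over all probes. In NPC1 against EpiSC neither passed (-0.19 ± 0.06 and -0.12 ± 0.09, adjusted p = 0.0749 and 0.356).

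Cdkn1c encodes p57, a cyclin-dependent kinase inhibitor that takes cells out of the cycle. Its probe, A_51_P339540, gave 2618.3 and 2557.3 in EpiSC, 2682.9 and 2615.9 in NPC1 and 5021.4 and 4712.2 in NPC2. The EpiSC and NPC1 arrays overlapped, and the NPC2 arrays stood above both groups. It was 1.80-fold higher in NPC2 than in EpiSC (log2 change 0.85 ± 0.06, adjusted p = 0.000275), while the change in NPC1 against EpiSC was 0.04 ± 0.06 (adjusted p = 0.61).

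Among the 7 other CDK inhibitors, 2 rose and 4 fell in NPC2 against EpiSC (list median -0.26, all genes -0.10), where 28.3% of all genes rose and 40.7% fell. Cdkn2a, which encodes the inhibitor p16 and the p53 regulator ARF, gave 662 and 691 in EpiSC, 143 and 126 in NPC1 and 67.5 and 55.8 in NPC2, a log2 change of -3.53 ± 0.13 (-2.57 under normexp and -2.78 as the mean of probes). Its neighbour Cdkn2b, coding for p15, changed by -3.34 ± 0.21 (-2.04 under normexp). The 2 that rose were Cdkn1b, coding for p27, by 0.39 ± 0.07, and Cdkn2c, coding for p18. Cdkn2c gave 23.7 and 26.2 in NPC2 and was not well above background in EpiSC (7.93 and 4.22), so it was at least 2.58-fold higher in NPC2. This bound took the higher of its own signal and the lowest signal well above background on each EpiSC array. Its fitted log2 change, which is no bound, was 2.04, and 0.38 under normexp. Of the 7, 2 rose and 2 fell by the authors' value table, where 6157 of all 14773 genes rose and 3899 fell.

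Dlk1 encodes a transmembrane relative of Notch ligands that holds back differentiation of several precursor types. Probe A_66_P117477 gave 822.6 and 790.9 in EpiSC, 603.2 and 732.4 in NPC1 and 1177.8 and 1215.6 in NPC2. NPC1 was lowest and its 2 arrays differed most, and NPC2 was highest, with no overlap between groups. Dlk1 was 1.42-fold higher in NPC2 than in EpiSC (log2 change 0.50 ± 0.08, adjusted p = 0.00339). The change in NPC1 against EpiSC was -0.27 ± 0.08 (adjusted p = 0.0402), and it lost its call with no filter on dim probes (0.0823), under quantile normalization (0.0744), in the authors' value table (0.156) and without 5 of the 6 arrays, each left out alone (0.0693 to 0.156). The second probe, A_55_P2105371, gave 130.0 and 109.2 in EpiSC, 90.6 and 99.8 in NPC1 and 156.3 and 158.7 in NPC2. At probe level neither probe passed in NPC1 against EpiSC (adjusted p = 0.0676 for A_66_P117477 and 0.0689 for A_55_P2105371), and both passed in NPC2 against EpiSC.

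Plagl1 encodes ZAC1, a zinc finger transcription factor known to arrest the cell cycle. Probe A_55_P1961968 gave 1520.0 and 1515.5 in EpiSC, 418.3 and 478.7 in NPC1 and 1114.7 and 1093.3 in NPC2. NPC1 lay far below both other groups, and NPC2 lay between NPC1 and EpiSC. Plagl1 was 3.37-fold lower in NPC1 than in EpiSC (log2 change -1.75 ± 0.05, adjusted p = 0.000102), and 1.48% of tested genes fell as much. With the mean of its 4 probes in place of the brightest, the log2 change was -0.95 in NPC1 against EpiSC and 0.60 in NPC2 against NPC1, both past the test. In NPC2 it was 2.35-fold higher than in NPC1 (adjusted p = 0.000137) and 1.44-fold lower than in EpiSC (log2 change -0.52 ± 0.05, adjusted p = 0.000766). The summed endoderm markers were also lowest in NPC1. Among them Foxa2, an endoderm and axial midline transcription factor gene, gave 2061 and 1966 in EpiSC, 101 and 136 in NPC1 and 542 and 606 in NPC2. Its rise from NPC1 to NPC2 was not that of its list. Of the 7 tested endoderm markers 1 was higher and 3 lower in NPC2 than in NPC1, with a median log2 change of -0.16. Of all genes 20.8% were higher and 26.6% lower in that comparison. The part of endoderm cells in the course of Plagl1 was not tested.

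The 4 Plagl1 probes did not agree. Probe A_52_P532456 gave 1219.4 and 1194.5 in EpiSC, 330.9 and 357.2 in NPC1 and 877.6 and 906.6 in NPC2, the same course as the brightest probe. Probe A_55_P1961965 gave 63.3 and 58.4 in EpiSC, 61.3 and 72.6 in NPC1 and 61.8 and 47.3 in NPC2. Probe A_55_P2153251 gave 48.8 and 39.9 in EpiSC, 38.4 and 29.3 in NPC1 and 44.6 and 39.0 in NPC2. Neither of these dim probes passed in any comparison, with log2 changes in NPC1 against EpiSC of 0.14 ± 0.15 and -0.39 ± 0.20. Which transcripts each probe detects was not analysed here.

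**Figure D2:**
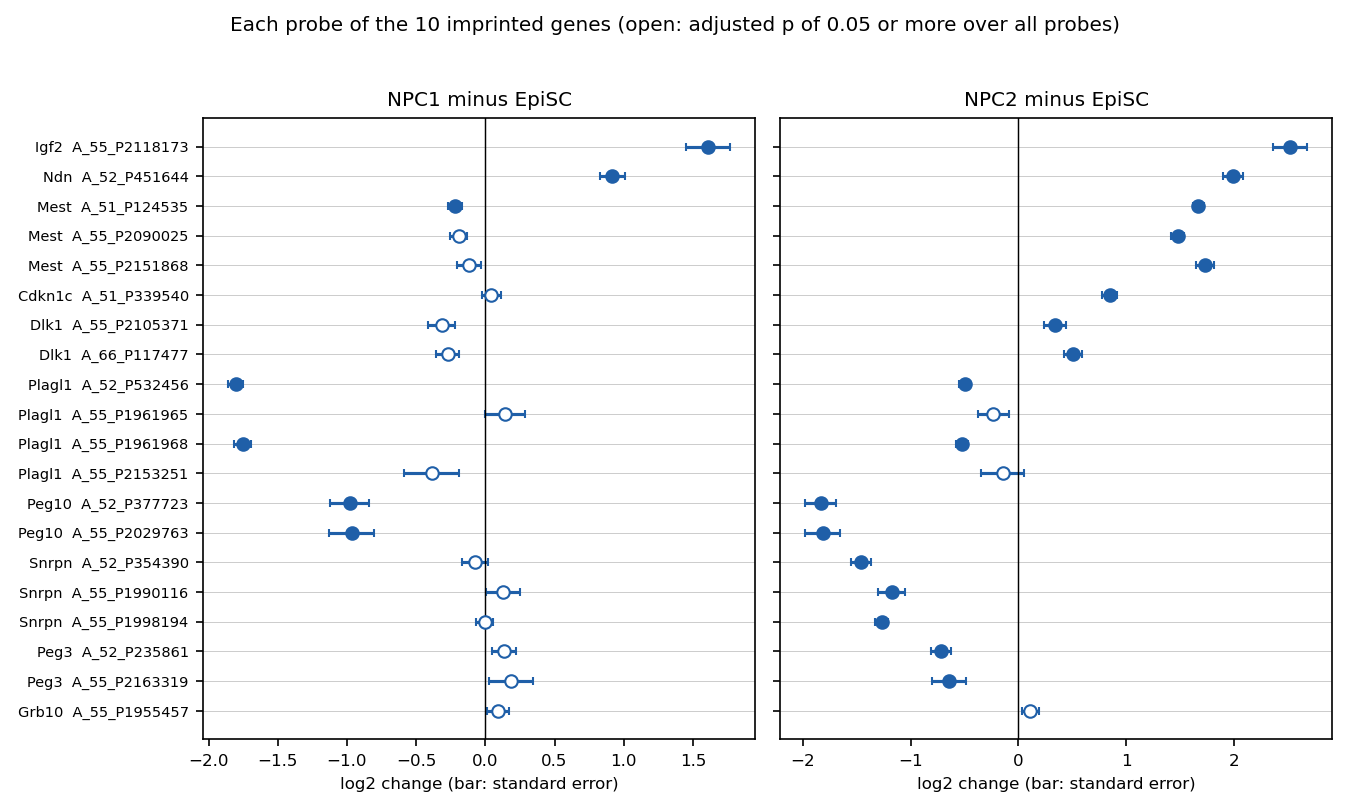
Log2 change of each of the 20 probes with its standard error, in NPC1 minus EpiSC (left) and NPC2 minus EpiSC (right), with filled points past an adjusted p of 0.05 over 33536 probes. In NPC2 minus EpiSC the probes of Mest, Dlk1, Peg10, Snrpn and Peg3 lie on 1 side of 0 within each gene, while 2 of the 4 Plagl1 probes lie near 0 and are open.

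Over the 20 probes, 7 passed in NPC1 against EpiSC (2 higher, 5 lower), where 33.3% of 33536 probes passed (16% higher, 17.3% lower). In NPC2 against EpiSC 17 passed (8 higher, 9 lower), against a background of 54.5% (23.9% higher, 30.7% lower). In NPC2 against NPC1 17 passed (10 higher, 7 lower), against 31.8% (13.7% higher, 18.2% lower). Probes of 1 gene share a target and are not independent, and these shares are likewise no test of the group.

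Peg10 encodes a protein derived from a retrotransposon that is needed for the placenta. Probe A_52_P377723 gave 213.4 and 206.1 in EpiSC, 117.5 and 94.9 in NPC1 and 63.8 and 59.3 in NPC2. The second probe, A_55_P2029763, gave 210.8 and 199.1 in EpiSC, 116.5 and 93.5 in NPC1 and 56.5 and 65.7 in NPC2. Both probes were lower in each later group, with no overlap. Peg10 was 3.57-fold lower in NPC2 than in EpiSC (log2 change -1.83 ± 0.14, adjusted p = 0.000271; -1.22 under normexp) and 1.97-fold lower in NPC1 than in EpiSC (adjusted p = 0.00436).

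Snrpn encodes SmN, a core protein of the small nuclear ribonucleoproteins of splicing, on a transcript it shares with Snurf. Probe A_52_P354390 gave 8157.5 and 7727.8 in EpiSC, 6750.9 and 8346.2 in NPC1 and 2953.3 and 3079.2 in NPC2. The NPC1 arrays lay on either side of those of EpiSC, and the NPC2 arrays lay below all others. Snrpn was 2.75-fold lower in NPC2 than in EpiSC (log2 change -1.46 ± 0.09, adjusted p = 0.000136). The change in NPC1 against EpiSC was -0.07 ± 0.09 (adjusted p = 0.528), and its sign turned under other settings. Probe A_55_P1998194 gave 3695.6 and 3649.2 in EpiSC, 3385.3 and 3912.5 in NPC1 and 1586.2 and 1598.7 in NPC2. Probe A_55_P1990116 gave 257.3 and 237.4 in EpiSC, 291.0 and 247.2 in NPC1 and 112.6 and 116.3 in NPC2. All 3 probes passed in NPC2 against EpiSC, at log2 changes of -1.17 to -1.46.

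Peg3 encodes a large zinc finger protein that binds DNA and is known from maternal behaviour and growth in mice. Probe A_52_P235861 gave 578.3 and 527.2 in EpiSC, 613.5 and 592.2 in NPC1 and 367.3 and 335.0 in NPC2. The second probe, A_55_P2163319, gave 137.2 and 113.3 in EpiSC, 153.0 and 129.3 in NPC1 and 88.7 and 78.6 in NPC2. NPC2 was the lowest group on both probes. Peg3 was 1.65-fold lower in NPC2 than in EpiSC (log2 change -0.72 ± 0.08, adjusted p = 0.00124), while the change in NPC1 against EpiSC was 0.13 ± 0.08 (adjusted p = 0.239).

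Grb10 encodes an adaptor protein that dampens signalling by the insulin and IGF1 receptors. Its probe, A_55_P1955457, gave 1885.1 and 1902.8 in EpiSC, 2071.1 and 1949.8 in NPC1 and 2203.2 and 2069.2 in NPC2. It had the smallest change of the 10 genes in NPC2 against EpiSC, 0.11 ± 0.07 on the log2 scale (adjusted p = 0.243), and was the 1 gene of the 10 that did not pass there. It passed under quantile normalization (0.27, adjusted p = 0.0329), normexp (0.27, adjusted p = 0.00587) and the authors' value table (0.33, adjusted p = 0.0174).

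Whether the second day differed from the first was tested as the change in NPC2 against NPC1 minus that in NPC1 against EpiSC, a contrast added after the data were seen. It passed for 6 of the 10 genes, where 29.5% of all genes passed. Plagl1 had the largest value, 2.98 ± 0.09 (adjusted p = 0.000304; 1.55 as the mean of probes), followed by Mest at 2.11 ± 0.07, Dlk1 at 1.05 ± 0.14 and Cdkn1c at 0.76 ± 0.11. Snrpn (-1.32 ± 0.15) and Peg3 (-0.99 ± 0.15, adjusted p = 0.00941) passed with negative values, and Peg3 lost its call without NPC1 replicate A (-0.85, adjusted p = 0.0533). Igf2, Peg10, Ndn and Grb10 did not pass (adjusted p = 0.113, 0.723, 0.478 and 0.684), so a different change on the 2 days was not shown for them.

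**Figure D3:**
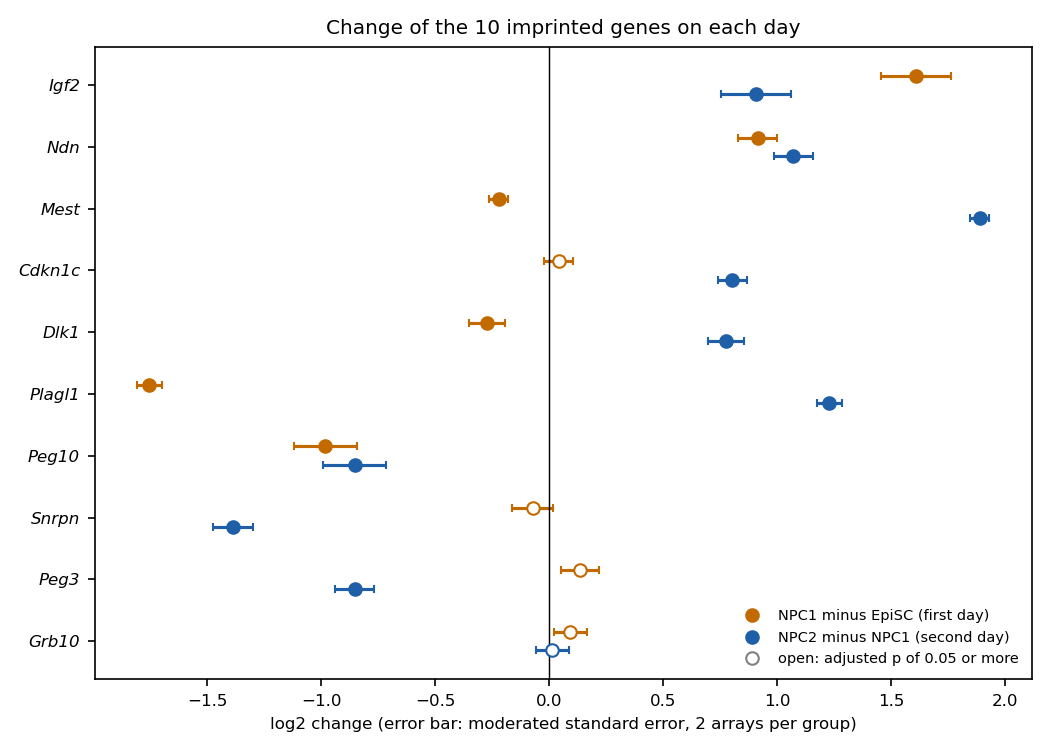
Log2 change of each gene in NPC1 minus EpiSC (orange) and NPC2 minus NPC1 (blue), with moderated standard errors from 2 arrays per group. Igf2, Ndn and Peg10 have both points filled on 1 side of 0, Plagl1, Mest and Dlk1 have them on opposite sides, and Cdkn1c, Snrpn and Peg3 have a filled point for NPC2 minus NPC1 alone. The calls of Mest and Dlk1 in NPC1 minus EpiSC were lost under several alternatives.

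Imprinted genes lie in clusters, so neighbours within 1 Mb were read from lists of other imprinted genes. Of these lists, 7 of 19 tested paternally expressed genes rose and 6 fell in NPC2 against EpiSC (median 0.26), and 7 of 24 maternally expressed genes rose and 5 fell (median 0.03, and -0.05 under median scaling). Of the maternally expressed genes, 13 rose and 4 fell by the authors' value table, where 6157 of all 14773 genes rose and 3899 fell. In the main setting 28.3% of all genes rose and 40.7% fell, with a median of -0.10. The neighbours given with values next are those that passed in NPC2 against EpiSC, and were chosen after their values were seen. Of all genes 69% passed there. Tested neighbours that did not pass were Usp29 near Peg3, Magel2 near Ndn, Asb4 near Peg10 and Klf14 near Mest. Near Igf2, Cdkn1c or both, Kcnq1ot1, Ins2, Kcnq1, Cd81, Tssc4, Tspan32, Nap1l4, Osbpl5 and Th did not pass. Some neighbours could not be tested. No probe was matched to H19 near Igf2 and Cdkn1c, Rian near Dlk1 or Snurf near Snrpn. Rtl1 near Dlk1 and Zim1 near Peg3 were not well above background on any array.

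Next to Ndn, Peg12 gave 75.7 and 78.1 in EpiSC, 120 and 117 in NPC1 and 1095 and 1125 in NPC2, a log2 change of 3.79 ± 0.06 in NPC2 against EpiSC (3.0 under normexp). Peg12 encodes a relative of the Wnt pathway protein FRAT. Mkrn3, a ring finger protein gene also beside Ndn, rose by 1.18 ± 0.07 in NPC2 against EpiSC. Snrpn, which fell, lies on the same chromosome but outside the 1 Mb limit from Ndn, a limit that need not hold a whole cluster. The listed windows of Snrpn lie between chr7:60005200 and chr7:60450427, and that of Ndn at chr7:62348027-62348276. Ube3a, a neighbour of Snrpn and a ubiquitin ligase gene expressed from the maternal copy in neurons, fell by 0.41 in NPC2 against EpiSC (adjusted p = 0.00179).

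Next to Peg10, Calcr, the calcitonin receptor gene, gave 1354 and 1346 in EpiSC, 861 and 991 in NPC1 and 68.9 and 66.5 in NPC2, a log2 change of -4.38 ± 0.06 in NPC2 against EpiSC (-3.44 under normexp). Sgce, which shares a promoter region with Peg10 and encodes epsilon-sarcoglycan, changed the other way, by 0.69 ± 0.07. Ppp1r9a, coding for neurabin, rose by 0.74 ± 0.07. Copg2 beside Mest, coding for a coatomer subunit, rose by 0.89 ± 0.08.

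Next to Dlk1, the noncoding RNA Meg3 gave 20596 and 20037 in EpiSC, 39697 and 42115 in NPC1 and 31272 and 31742 in NPC2. Meg3 was highest in NPC1, where Dlk1 was lowest, though the fall of Dlk1 in NPC1 lost its call under several alternatives. Its log2 change was 1.02 in NPC1 against EpiSC (adjusted p = 0.000207) and 0.57 in NPC2 against EpiSC (adjusted p = 0.000318). Mirg, a microRNA host transcript of the same cluster, changed by 0.87 and 0.34 in these comparisons. Dio3, which encodes a deiodinase that inactivates thyroid hormone, gave 17.1 and 21.5 in EpiSC, 84.9 and 83.2 in NPC1 and 11.9 and 12.0 in NPC2, with a log2 change of 2.14 in NPC1 against EpiSC (0.94 under normexp).

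Near Igf2 and Cdkn1c, Slc22a18, an organic cation transporter gene, rose by 1.20 ± 0.06 in NPC2 against EpiSC. Phlda2, which limits placental growth, changed by -1.06 ± 0.06, and Ascl2, a trophoblast transcription factor gene, was 2.00-fold lower (adjusted p = 6.5e-05). Away from these clusters, Peg13, a noncoding RNA gene, rose by 1.49 ± 0.06 and Sfmbt2, a Polycomb gene, changed by -1.55 ± 0.10.

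**Figure D4:**
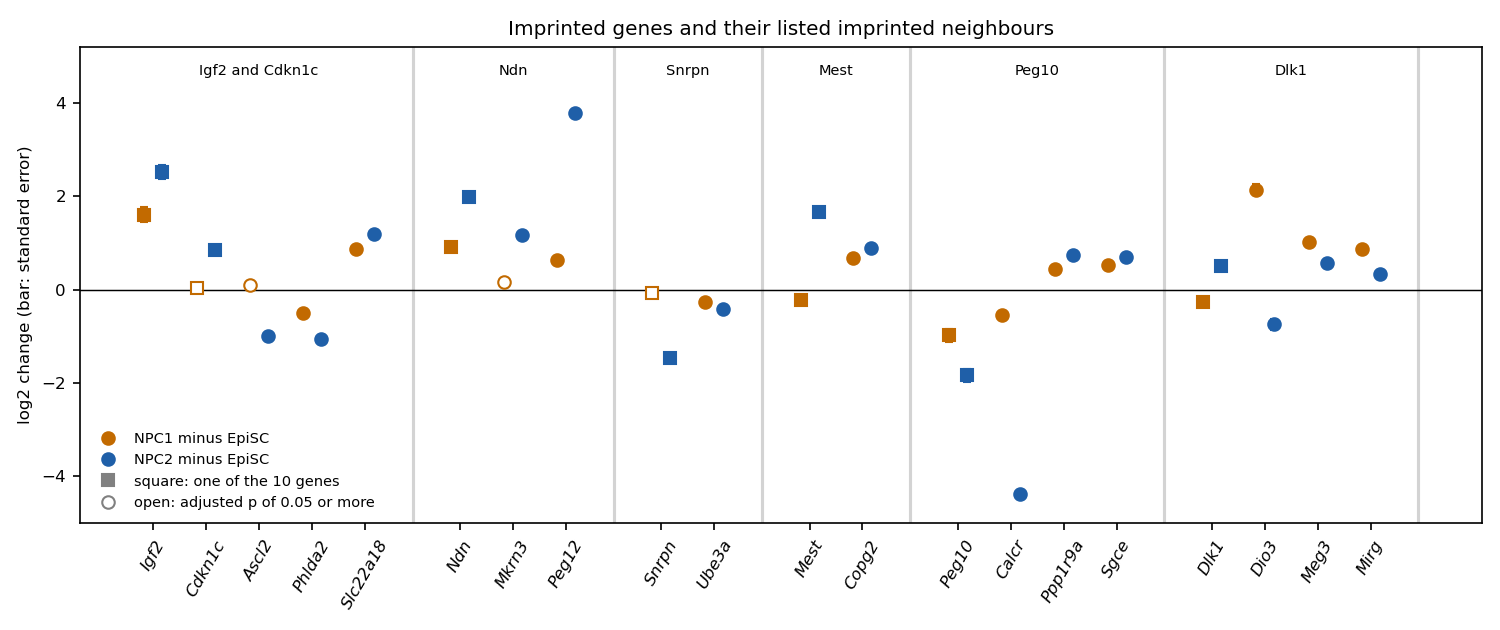
Log2 change with standard error of the imprinted genes (squares) and of the listed imprinted genes within 1 Mb that passed in NPC2 against EpiSC (circles), for NPC1 minus EpiSC (orange) and NPC2 minus EpiSC (blue), with open points at an adjusted p of 0.05 or more. In NPC2 minus EpiSC, Ndn and the 2 of its neighbours that passed are above 0, and Calcr lies below 0 while Sgce and Ppp1r9a lie above it.

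Factors that set or keep imprints were read from a list of 16, of which 14 were tested. In NPC2 against EpiSC 7 fell and 2 rose (median -0.18), so that 9 of 14 passed where 69% of all genes did (40.7% fell, 28.3% rose, median -0.10), a share near the background. Other scalings moved the split: 5 fell and 6 rose by the authors' value table (median 0.05), 6 fell and 6 rose under quantile normalization, and 8 fell and 1 rose under median scaling. Of all 14773 genes, 3899 fell and 6157 rose by the value table. Under quantile normalization 4863 fell and 4977 rose, and under median scaling 6818 fell and 3574 rose. Dnmt3l, the cofactor of the de novo DNA methyltransferases, gave 181 and 176 in EpiSC, 57.5 and 57.0 in NPC1 and 53.9 and 49.2 in NPC2, a log2 change of -1.86 ± 0.07 in NPC2 against EpiSC (-1.17 under normexp). The methyltransferase genes Dnmt3a and Dnmt3b changed by -1.13 ± 0.06 and -1.11 ± 0.05, and Zfp57 by -0.91 ± 0.04. The 2 that rose were the maintenance methyltransferase gene Dnmt1 (0.17 ± 0.06, adjusted p = 0.0489) and Arid4b (0.39 ± 0.07). The Dnmt1 call lay near the threshold. With no filter on dim probes 1 of 16 factors rose and 7 fell, where 3923 of 20274 genes rose and 5575 fell.

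A list of relatives of the members had 7 tested genes, which were PLAG and MAGE genes and Snrpb, a relative of Snrpn. In NPC2 against EpiSC 3 rose and 2 fell (5 rose and 1 fell by the authors' value table), where 28.3% of all genes rose and 40.7% fell. Plagl2, a zinc finger relative of Plagl1, rose by 1.05 ± 0.07 where Plagl1 was 1.44-fold lower. The MAGE genes Mageh1 and Maged1 rose by 0.52 ± 0.07 and 0.51 ± 0.05, and Maged2 changed by -0.44 ± 0.04. Snrpb, the other gene of the list that fell, changed by -0.26 ± 0.06.

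For each imprinted gene that passed in NPC2 against EpiSC, the 2 genes with the most similar course over the 6 arrays were found by the Euclidean distance between centred log2 values. Acta2 (distance 0.175) and Pak7 (0.313) were nearest to Igf2, Chst10 (0.0943) and Tha1 (0.145) to Ndn, and Fgf18 (0.235) and Npl (0.281) to Mest. Cdon (0.0583) and Daglb (0.106) were nearest to Cdkn1c, Zfp454 (0.109) and Fzd7 (0.117) to Dlk1, and Foxa1 (0.246) and Mgll (0.299) to Plagl1. Crybg1 (0.145) and Mpv17l (0.241) were nearest to Peg10, Fam43a (0.0832) and Adgrg1 (0.188) to Snrpn, and Zfp365 (0.075) and Rffl (0.124) to Peg3.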

How the data were processed

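Total RNA of 6 cultures was hybridised to 6 Agilent 1-colour arrays (design 028005, per the file headers). Spots were quantified by Feature Extraction 10.10.1.1, protocol GE1_1010_Sep10, per the file headers. Its processed signal is a linear intensity with the background taken off, and it has had no scaling between arrays. The deposited table of the authors repeats this intensity, each array multiplied by its own constant (2.10 to 2.41), linear and uncentred; the sources used here do not say what set the constant.

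Control and outlier spots were left out, and spots of a probe were averaged. Values tested were log2 of the processed signal minus the array's 75th percentile, which was 343 to 374. A probe entered when both arrays of 1 group or more had it well above background, and the brightest such probe stood for its gene. Gene names came from the RefSeq table of GRCm38.p6, used for names and neighbours: of 28372 probes with an accession, 26744 matched. The test was that of limma (lmFit, eBayes, two-sided; version 3.58.1, R 4.3.3), with the 3 groups in 1 fit and 3 residual degrees of freedom, adjusted by Benjamini-Hochberg over 14773 genes or 33536 probes, at 0.05. The fit was also run on simulated data with independent normal noise and changes added to a small set of genes. Those settings differ from these arrays, so this was a check of the code alone. Precision is limited by the 2 arrays per group; a log2 change had a median standard error of 0.0678.

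Named were the 10 genes with every probe, per list up to 4 called genes with the largest change in NPC2 against EpiSC and any needed for a small count, the 2 nearest genes in course, and check genes; other genes are marked as chosen after their values were seen. Members and lists were chosen with earlier results of these data known.

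The alternatives were 8 settings, among them scaling to the median, quantile normalization, normexp and the value table, and leaving out each array. Normexp was run on the median signal (the mean signal is not in the files used here) and was followed by quantile normalization.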

Additional observations from a re-analysis of the deposited data

How the results depend on the processing

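The counts of the 10 genes and their probes in the 3 comparisons stayed within 1.5 times their value under all alternatives run. Of 320 changes of the 10 genes under the 8 processing alternatives, 302 kept direction and side of the threshold, 7 lost their call, 3 gained one and 8 turned sign; of 240 with 1 array left out, 226 kept both, 8 lost their call and 6 turned sign. The cause of these differences was not tested. Normexp, which adds an offset of 50 and was followed by quantile normalization, gave smaller changes for Igf2 and Peg10, and the mean of probes for Plagl1. These moved a fold by over 1.5 times without ending a call.

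Without EpiSC replicate B, 4880 genes passed in NPC1 against EpiSC in place of 7434. Leaving out 1 array gave 4880 to 6720 genes in that comparison, and 2478 to 3176 genes, in place of 4355, for the second day against the first. Sign turned for changes that had not passed. In NPC1 against EpiSC, median scaling gave -0.0571 for Cdkn1c, -0.00557 for Grb10 and -0.00342 for Ascl2, and without NPC1 replicate A Cdkn1c gave -0.0203 (up to 0.105 without NPC1 replicate B) and Snrpn 0.0361. Snrpn gave 0.0842 under quantile normalization, 0.0873 under normexp, 0.0512 in the value table and 0.0165 with the mean of probes. In NPC2 against NPC1 Grb10 gave -0.073 without NPC1 replicate B and -0.0235 without NPC2 replicate A (up to 0.103 without NPC1 replicate A), and Magel2 gave -0.0638 without NPC2 replicate B and 0.213 without replicate A. For the second day against the first, Igf2 gave 0.0993 under normexp, Peg10 -0.267 without NPC1 replicate B and 0.525 without replicate A, and Grb10 0.037 under median scaling, 0.0968 without NPC1 replicate A and -0.255 without replicate B.

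Arrays of the same letter, A or B, shared little of their deviation from the group means (correlations 0.00813, 0.00623 and -0.045). This does not show whether the cultures were set up in pairs. With the letter as a replicate block, 5, 9 and 9 of the 10 genes passed, against 6, 9 and 9 without it, and Dlk1 in NPC1 against EpiSC did not (adjusted p = 0.0569).

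Scaling sets where 0 lies: the all-gene median in NPC2 against EpiSC was -0.10 as reported, -0.18 under median scaling and 0.13 in the value table. The share of called genes that were higher was 42.3% in NPC1 against EpiSC, 29% under median scaling and 62.1% in the value table; in NPC2 against EpiSC it was 41% and 61.2% in the value table, and in NPC2 against NPC1 43.9% and 59%.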
